A study of Mus musculus with 6 samples.

Results

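Gap junction connexins and pannexins were followed in islets of mice with an induced deletion of Nkx6-1, which encodes a homeodomain transcription factor made in beta cells. The members were the 9 genes Gjd2, Gja1, Gja4, Gja5, Gjb1, Gjb2, Gjc1, Panx1 and Panx2, taken as every non-control probe whose gene name in the deposited scanner files equals one of these symbols. That gave 11 of 39429 probes and 9 of 31829 gene names, and 10 of the 11 probes and all 9 genes entered the test among 28361 probes and 22775 gene names. The accession of every member probe matched a RefSeq transcript of the same symbol.

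Single-colour Agilent arrays were hybridised with RNA from islets isolated from male mice aged 6 weeks, with 3 arrays from mutants and 3 from controls. Mutants were Nkx6.1fl/-;Pdx1-CreERTM and controls were Nkx6.1fl/+;Pdx1-CreERTM, so both groups carried the tamoxifen-activated Cre recombinase driven by Pdx1 in the pancreas and a floxed Nkx6-1 allele. All mice received tamoxifen at 2 mg per 25 g of body weight in corn oil, in 4 injections that began at the age of 4 weeks. Mutants also held a null allele before any tamoxifen was given, and controls kept a wild-type allele that Cre does not reach. The Nkx6.1-flox line was on a mixed FVB/N x C57Bl/6J background and the Cre line on a mixed Cd1 x C57Bl/6J background. Each RNA sample pooled the islets of 2 pancreata of 1 genotype, and 150 ng of it was labelled with Cy3. The samples are labelled as separate pools, and the p-values measure the spread between these pools.

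Connexins assemble into channels that join the cytoplasm of neighbouring cells and let ions and small molecules pass, whereas pannexins form channels of a single membrane through which ATP can leave the cell. In islets, connexin 36 (the product of Gjd2) couples beta cells electrically, which is known to align their calcium oscillations and pulses of insulin secretion. Acinar, endothelial and smooth muscle cells of the pancreas use other connexins, and RNA of such cells can be carried along with isolated islets.

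Every value below is the log2 background-corrected signal of a probe minus the 75th percentile of its own array, so a value of 0 equals that percentile. Values of different probes are not set against each other. Of the spots on each array, 66.8%, 63.9% and 74.4% were well above background on mutant arrays A, B and C, against 73.4%, 75.6% and 76.3% on control arrays A, B and C. The lowest signal called well above background was 40.0 and 34.2 on mutant arrays A and B, against 11.7 to 16.7 on the other 4 arrays, so dim probes are measured less well on those 2 mutant arrays. Slide 1 held mutants B and C and control A, and slide 2 held mutant A and controls B and C. The only Nkx6-1 probe read 4.28 ± 0.20 in mutants and 4.76 ± 0.10 in controls (SD, n = 3 each), with every mutant array below every control array and a difference of -0.48 that missed the threshold used here (adjusted p = 0.131 by limma). Whether that probe lies in the deleted part of the gene is not stated in the labels, so its signal is a weak check of them.

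Among the 9 genes, Gjd2 was lower in mutant islets and passed the test, and no other member did. The threshold was a Benjamini-Hochberg adjusted p under 0.05 in limma over all 22775 genes. By that rule 2.53% of all genes tested were called in either direction, 1.12% lower and 1.41% higher, against 1 of 9 members (11.1%). A single gene among 9 is too few to set against that background. An unadjusted p under 0.05 was reached by 20.2% of all genes tested (4600 of 22775), and the counts at that level given for gene lists are to be read against this share. The members' differences ran from -0.75 to 1.00 with a median of -0.11, and 4 were positive and 5 negative. Over all genes tested the median difference was -0.025, and 46.6% of the differences were positive. The groups did not overlap for 1 member that was higher in mutants (Gja4) and for 2 that were lower (Gjd2 and Panx2), against 12.3% and 14% of all genes tested.

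**Figure D1:**
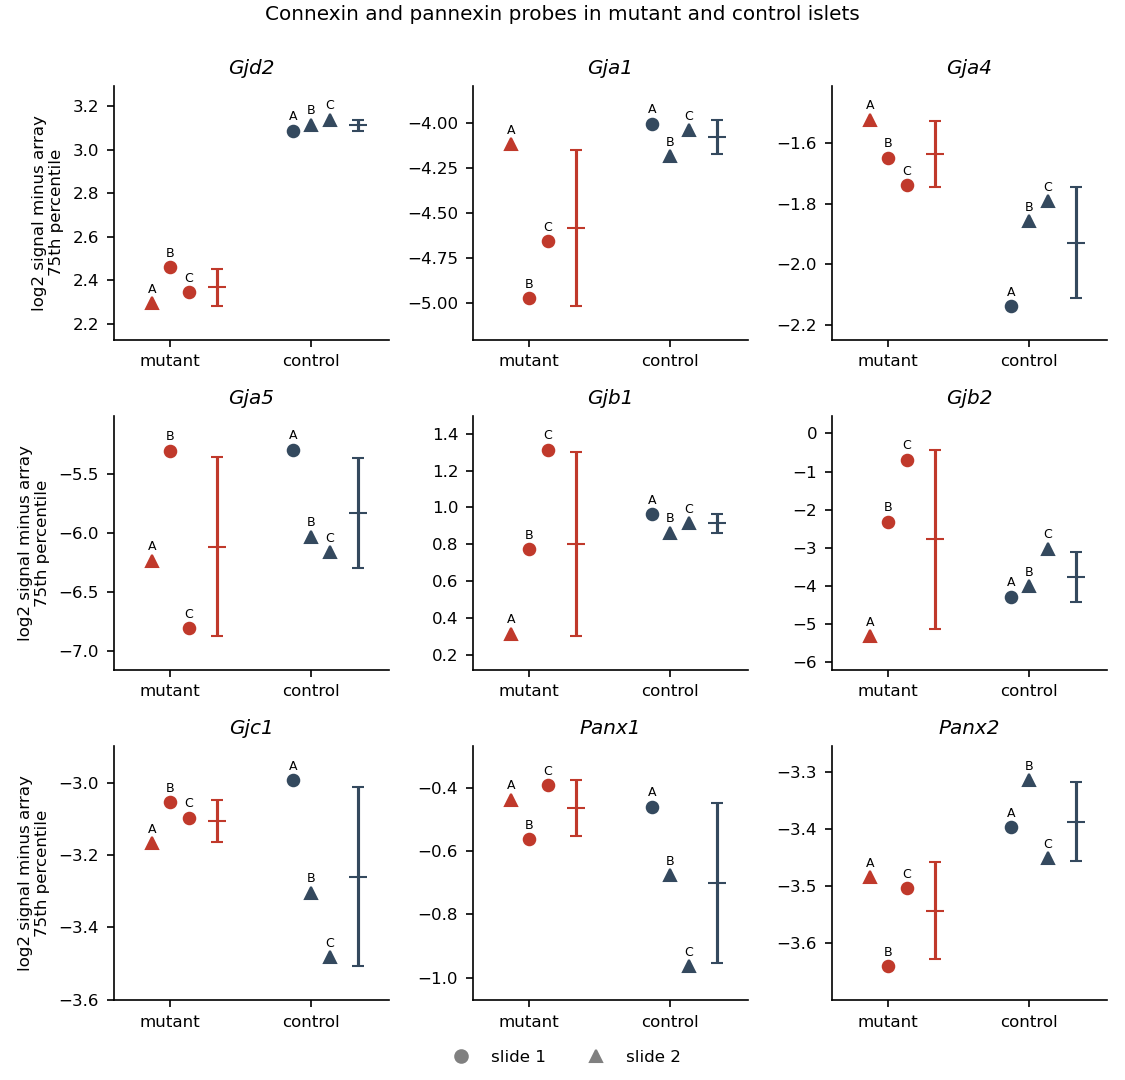
Log2 signal minus the array's 75th percentile for the 9 connexin and pannexin genes, with mutant arrays (red) left of control arrays (blue), letters naming the arrays and the marker shape giving the slide. Bars show the mean and SD of 3 arrays; the groups are apart for Gjd2, Gja4 and Panx2, and each panel has its own axis.

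Gjd2 encodes connexin 36, the gap junction protein of beta cells and of electrical synapses between neurons. Its probe lies at chr2:113835432-113835491 on the minus strand of mm9. The first 30 of its 60 bases are shown because the main result rests on the binding of this 1 oligonucleotide.
Gjd2 probe: ggcaagagtagcattgagataatatgtttt
Mutant arrays A, B and C read 2.30, 2.46 and 2.34 for Gjd2, against 3.09, 3.11 and 3.14 on control arrays A, B and C. All 3 mutant arrays lay below all 3 control arrays, and the gap between the groups was wider than the range within either. The unscaled signals were 11816, 10154 and 8237 in mutants, against 16315, 21486 and 22875 in controls, far above the background of every array and with no saturated spot. The means of 2.37 ± 0.085 in mutants and 3.11 ± 0.025 in controls (SD, n = 3 each) differed by -0.75 (SE 0.10, 95% interval -0.98 to -0.51), which is 1.68-fold lower, or 59.6% of the control level (limma, adjusted p = 0.0267). The difference was -0.69 within slide 1 and -0.83 within slide 2. A fit that took slide as a block gave an adjusted p of 0.0337. In bulk islet RNA, fewer beta cells and less Gjd2 RNA per beta cell cannot be told apart.

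The size of the Gjd2 difference moved little with the processing, and its call was less stable. In 22 other settings with a test the difference was negative, and it passed the threshold in 12 and missed it in 10. The 12 include the same fit read at an adjusted p under 0.1. Filters, the block on sample letters, the variance trend and other probe rules leave the difference itself unchanged by design. Leaving out arrays cannot turn its sign, since the groups do not overlap. The sign in those settings is therefore no separate support. The adjusted p was 0.0489 without control A, but 0.0595, 0.0986 and 0.0739 without mutants A, B and C, and 0.128 and 0.144 without controls B and C. It was 0.0528 when arrays were scaled to their medians and 0.0508 with no filter on dim probes.

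**Figure D2:**
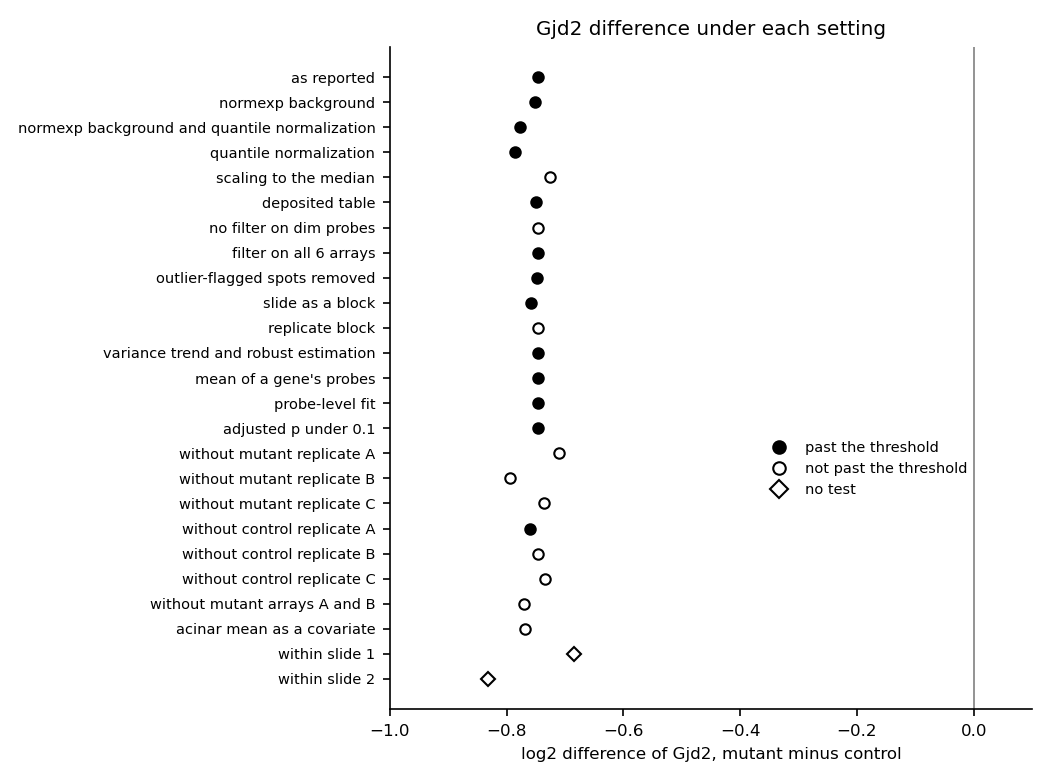
Mutant minus control log2 difference of Gjd2 under each processing setting, with filled circles past the threshold, open circles not past it and diamonds where no test was made. All differences lie between -0.83 and -0.69, left of the line at 0.

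Beta cell markers were read beside Gjd2. The insulin gene Ins1, which defines beta cells, gave nearly the same unscaled signal on all 6 arrays (504755 to 545905), with no spot flagged as saturated. Its scaled difference of 0.26 therefore repeats the difference in the arrays' 75th percentiles, which were on average lower in mutants by 0.26 on the log2 scale. These percentiles were 1622 to 1918 on slide 1, which held mutants B and C, and 2407 to 2597 on slide 2. The scaled Ins1 difference thus gives no measure of beta cell content. Ins2 and Iapp, at scaled differences of 0.25 and 0.26, had unscaled log2 differences of -0.014 and 0.0022. Of 10 beta cell markers, the deleted gene Nkx6-1 among them, 3 were called, all lower (Slc2a2, Ucn3 and Slc30a8). An unadjusted p under 0.05 in limma was reached by 6, and the list's median difference was -0.62. The summed signal of the list, in units of each array's 75th percentile, was 687 to 1092 in mutants and 782 to 1065 in controls, but Ins1, Ins2 and Iapp made up 68.5% to 89.4% of it. Without these 3 genes the other 7, still with Nkx6-1, summed to 108 to 148 in mutants and 227 to 251 in controls, with no overlap. The part of these other beta cell genes in the Gjd2 result was not tested.

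The genes whose 6 array values followed Gjd2 most closely were Elovl2, ATP8 and Ppm1b, with Pearson correlations of 0.999, 0.998 and 0.997 over 6 arrays that fall into 2 separate groups, so the values mostly repeat the difference between groups. Elovl2, an elongase of very long polyunsaturated fatty acids, differed by -0.88 (limma, adjusted p = 0.0246). Ppm1b, a protein phosphatase, differed by -0.63 (limma, adjusted p = 0.0329). ATP8, a mitochondrially encoded subunit of ATP synthase, differed by -0.41 and did not pass (limma, adjusted p = 0.0850).

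The promoter of Gjd2 is shown because the deleted gene encodes a homeodomain protein, a class that binds DNA through a TAAT core. RefSeq gives the Gjd2 window at chr2:114013570-114013869 on the minus strand of GRCm38.p6, from 250 bases before to 50 bases after the start site. It is 75% G and C, and its capitals mark ATTA, the reverse complement of TAAT, at base -27 from the start site.
Gjd2 promoter: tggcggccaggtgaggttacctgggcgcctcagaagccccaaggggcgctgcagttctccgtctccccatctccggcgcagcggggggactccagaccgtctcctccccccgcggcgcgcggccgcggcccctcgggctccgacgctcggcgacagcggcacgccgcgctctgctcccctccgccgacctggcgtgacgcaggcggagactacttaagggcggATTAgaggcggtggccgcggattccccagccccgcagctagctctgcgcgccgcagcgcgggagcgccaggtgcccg
RefSeq windows were found for 7 of the 9 genes (10 windows, since Gjb1 has several), and TAAT stood on either strand in 5 of the 10, against 58% of 32851 windows of the same length. The longer TAATTA, which holds TAAT on both strands, stood in 0 of the 10 and in 5.29% of all windows, and TTAATTA, which contains it, in 0 of the 10 and in 3.07%. A match is a run of letters and not a measured site, and these arrays did not measure binding.

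The connexins of the acinar cells of the exocrine pancreas, Gjb1 (connexin 32) and Gjb2 (connexin 26), spread widely among mutant arrays, and neither group difference passed. Gjb2 had its probe at chr14:57717629-57717688 on the mm9 assembly, and the first 30 of its 60 bases are shown because this probe has the widest spread of all members.
Gjb2 probe: caagttgaaccattaccactatgccttatg
Mutant arrays A, B and C read -5.32, -2.32 and -0.69 for Gjb2, against -4.28, -4.01 and -3.02 on control arrays A, B and C. Mutant A was below every control array and mutants B and C were above every one. On mutant A the Gjb2 signal was only 1.5 times the lowest signal called well above background on that array. The means were -2.78 ± 2.35 in mutants and -3.77 ± 0.66 in controls (SD, n = 3 each), a difference of 1.00 (SE 1.15, 95% interval -1.80 to 3.79; limma, adjusted p = 0.657). It was 2.78 within slide 1 and -1.80 within slide 2, and -0.045 without mutant C.

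Acinar markers were read beside Gjb2. The mean of 15 acinar marker genes, set against the mean of the controls, was -0.71, 0.84 and 1.60 on mutant arrays A, B and C, against -0.18, -0.082 and 0.26 on control arrays A, B and C. All 6 arrays fell in the same order by Gjb2 as by this mean, with mutant A lowest and mutant C highest. The defining markers Cpa1 and Cela1 gave the same order on the scaled values. Cpa1 (a carboxypeptidase) was at 6.20, 7.91 and 8.35 on mutant arrays and 6.73, 7.12 and 7.43 on control arrays A, B and C. Unscaled, mutant B lay below control C for Cpa1 (442488 and 447153) and Cela1 (300368 and 312166), but above it for Gjb2 (370 and 319). The scaled Cpa1 difference of 0.39 was 0.13 unscaled. Not every acinar gene kept the order, and Amy2a5 read 8.02 on control A and 7.83 on mutant B. The summed acinar signal, in units of each array's 75th percentile, was 983 to 3886 in mutants and 1471 to 1831 in controls. No acinar gene passed in limma, and 1 of 15 had an unadjusted p under 0.05. The part of acinar RNA in the Gjb2 values was not tested.

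Gjb1 was measured at chrX:98580902-98580961 (mm9). Gjb1 read 0.31, 0.77 and 1.31 on mutant arrays A, B and C, against 0.96, 0.86 and 0.91 on control arrays A, B and C. Mutants A and B lay below the controls and mutant C above them, in the order of the mutants' acinar means, while the controls differed little. The difference was -0.11 (SE 0.25, 95% interval -0.73 to 0.50; limma, adjusted p = 0.824). It was 0.081 within slide 1, -0.57 within slide 2 and 0.13 without mutant A. The part of acinar RNA in the Gjb1 values was not tested.

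**Figure D3:**
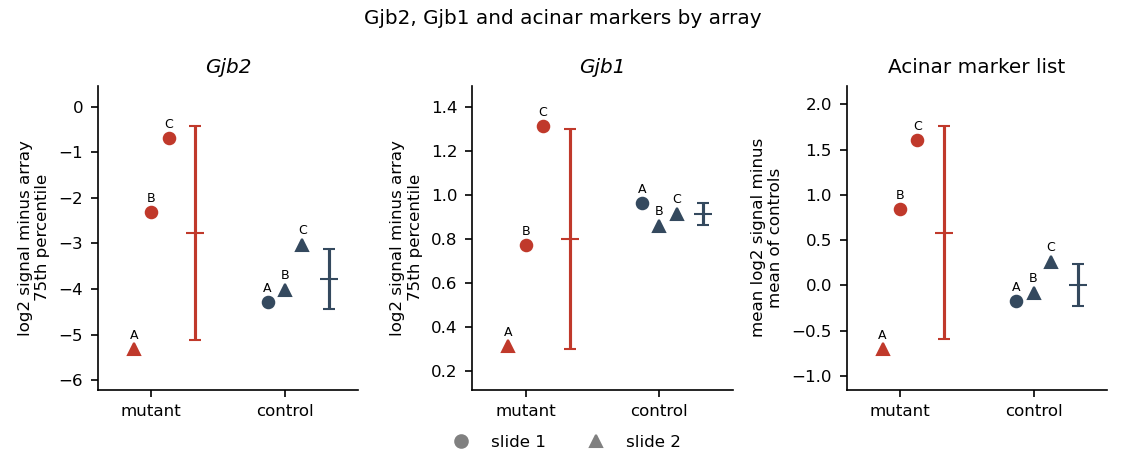
Gjb2 and Gjb1 as log2 signal minus the array's 75th percentile, and the mean of 15 acinar markers as log2 signal minus the mean of the controls, with mutant arrays (red) left of control arrays (blue). Bars show the mean and SD of 3 arrays; mutant A is lowest and mutant C highest in all 3 panels.

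Among the connexins known from blood vessels, none passed the test. Gja4 encodes connexin 37 of endothelium and had its probe at chr4:126988848-126988907 (mm9). Gja4 read -1.52, -1.65 and -1.74 on mutant arrays A, B and C, against -2.14, -1.86 and -1.79 on control arrays A, B and C. All mutant arrays lay above all control arrays, by a narrow margin between mutant C and control C. The difference was 0.29 (SE 0.13, 95% interval -0.032 to 0.62; limma, adjusted p = 0.289). Slide 1 alone gave 0.44 and slide 2 alone 0.30.

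Endothelial genes gave no call beside Gja4. Of 11 endothelial markers 0 passed in limma and 0 had an unadjusted p under 0.05, with a median difference of 0.13. The defining markers Pecam1 and Cdh5 (adhesion proteins between endothelial cells) differed by 0.10 and 0.32. Their list summed to 42.1 to 43.3 in mutants and 37.0 to 46.0 in controls, in units of each array's 75th percentile, and its part in the Gja4 values was not tested.

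Gja5 encodes connexin 40 of arterial endothelium and was near the limit of detection. Its tested probe at chr3:96857349-96857408 (mm9) was well above background on 2 of 3 mutant and all 3 control arrays. The tested Gja5 probe read -6.24, -5.31 and -6.81 on mutant arrays A, B and C, against -5.30, -6.03 and -6.16 on control arrays A, B and C. The groups overlapped, with mutant C lowest and both mutant B and control A high. The difference was -0.29 (SE 0.43, 95% interval -1.33 to 0.75; limma, adjusted p = 0.731), and it was 0.12 with normexp background correction and 0.059 without mutant C. Within slide 1 it was -0.76 and within slide 2 it was -0.14.

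A further Gja5 probe was not tested because it was well above background on 0 mutant arrays and 1 control array (control B). Its sequence matches the RefSeq transcript start, from 12 bases after the start site, and it lies 21010 bases from the tested probe. Arterial markers were near even, with Efnb2 at a difference of 0.11 and Dll4 at 0.014, a median of 0.11 over 5 genes and 0 calls in limma (0 at an unadjusted p under 0.05). The summed arterial signal was 1.37 to 1.64 in mutants and 1.31 to 1.72 in controls, in units of each array's 75th percentile.

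Gja1 encodes connexin 43, which many cell types use, smooth muscle and fibroblasts among them. It was spotted 10 times on each array, with its probe at chr10:56109814-56109873 (mm9), and the first 30 of the 60 bases are shown because this is the member with repeated spots.
Gja1 probe: ctacacattaactcagaacttgtattctga
Mutant arrays A, B and C read -4.12, -4.97 and -4.66 for Gja1, against -4.00, -4.18 and -4.04 on control arrays A, B and C. Mutants B and C lay below every control, and mutant A fell between controls B and C. On mutants A, B and C the Gja1 signal was 3.5, 1.7 and 5.5 times the lowest called well above background. On controls it was 8.3 to 9.4 times that level, so Gja1 was measured nearer the limit on mutants. The SD over the 10 spots of an array was 0.053 to 0.207, beside an SD between arrays of 0.43 in mutants and 0.096 in controls. The difference was -0.51 (SE 0.23, 95% interval -1.06 to 0.045; limma, adjusted p = 0.282). It was -0.81 within slide 1, but -0.0036 within slide 2. With normexp background correction the Gja1 difference was -0.20, and from the deposited table it was -0.28.

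Gjc1 encodes connexin 45, known from smooth muscle and the conduction system of the heart, and its probe lies at chr11:102661010-102661069 (mm9). Gjc1 read -3.17, -3.05 and -3.10 on mutant arrays A, B and C, against -2.99, -3.30 and -3.48 on control arrays A, B and C. The mutants sat close together inside the range of the controls, with control A above them and controls B and C below. The difference was 0.15 (SE 0.15, 95% interval -0.21 to 0.52; limma, adjusted p = 0.595). The slides gave -0.083 (slide 1) and 0.23 (slide 2).

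Markers of smooth muscle and pericytes were read beside Gja1 and Gjc1. Their median difference was 0.076 over 9 genes, with Acta2 at 0.17 and Tagln at 0.076, and 0 passed in limma (1 at an unadjusted p under 0.05). Their summed signal was 19.0 to 20.8 in mutants and 15.4 to 17.2 in controls, in units of each array's 75th percentile. Mcam alone made up 48.7% to 62.2% of these sums, and without it they were 7.74 to 8.24 in mutants and 7.49 to 7.93 in controls, which overlap. Mesenchyme and stellate cell genes summed to 10.3 to 12.1 in mutants and 5.41 to 14.8 in controls, with a median difference of 0.39 and 0 of 9 called in limma (0 at an unadjusted p under 0.05). The part of these cells in the Gja1 and Gjc1 values was not tested.

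Neither pannexin passed. Panx1 forms an ATP-permeable channel found in many tissues, and its probe lies at chr9:14810250-14810309 (mm9). Panx1 read -0.44, -0.56 and -0.39 on mutant arrays A, B and C, against -0.46, -0.68 and -0.96 on control arrays A, B and C. The groups overlapped at control A, which lay between mutants A and B, while controls B and C were below every mutant. The difference was 0.24 (SE 0.15, 95% interval -0.14 to 0.61; limma, adjusted p = 0.437). Slide 1 gave -0.018 and slide 2 gave 0.38.

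Panx2, a pannexin best known from the nervous system, had 2 probes, both lower in every mutant array than in any control array. The brighter probe at chr15:88900248-88900307 (mm9) stands for the gene. This Panx2 probe read -3.48, -3.64 and -3.50 on mutant arrays A, B and C, against -3.40, -3.31 and -3.45 on control arrays A, B and C. The groups were close, with mutant A just below control C, and the difference was -0.15 (SE 0.10, 95% interval -0.40 to 0.094; limma, adjusted p = 0.443). It was -0.17 within slide 1 and -0.10 within slide 2.

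The dimmer Panx2 probe, at chr15:88899304-88899363 (mm9), gave a wider gap. Mutant arrays A, B and C read -4.81, -4.87 and -4.95 on this Panx2 probe, against -4.54, -4.28 and -4.63 on control arrays A, B and C. Its difference was -0.40 (SE 0.13), which did not pass in the fit over single probes (limma, adjusted p = 0.162). On mutants A, B and C its signal was 2.1, 1.8 and 4.5 times the lowest called well above background. On controls it was 5.8 to 7.8 times that level. Mutants A and B were nearest to the limit, but mutant C read lowest. The part of low signal in the wider gap was not tested. Both Panx2 probes had the same direction and neither passed.

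**Figure D4:**
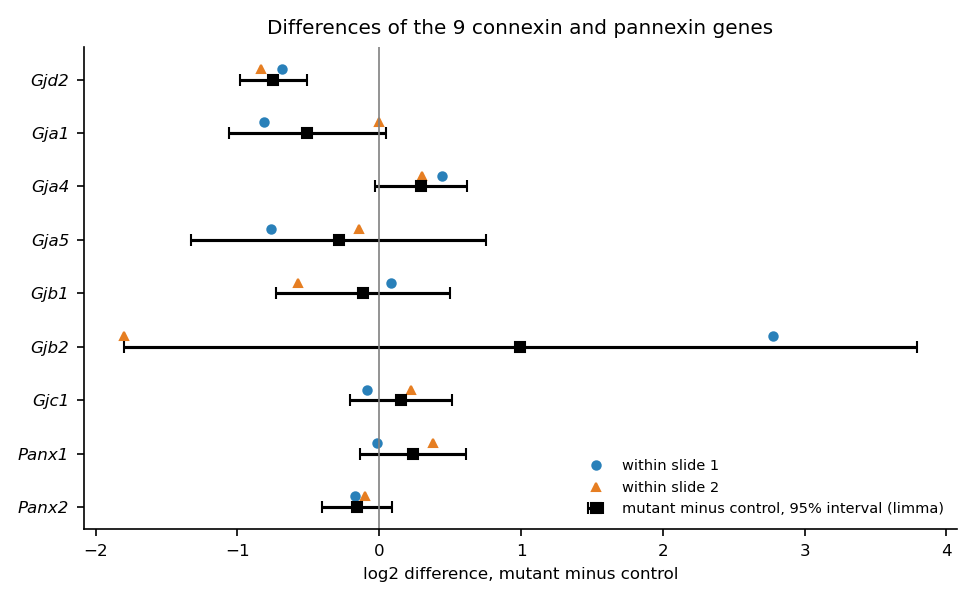
Mutant minus control log2 difference of each of the 9 genes with its 95% interval from limma (black squares and bars), and the differences within slide 1 (circles) and within slide 2 (triangles), which have no test. The interval of Gjd2 alone lies wholly on 1 side of 0, and that of Gjb2 is the widest, with slides on opposite sides of 0.

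Further connexins and pannexins were mostly dim or not called. Of 10 other family members read on the array, 4 were tested, and 0 passed in limma (0 at an unadjusted p under 0.05), with a median difference of 0.022. Gjd3 had the smallest p of them, at -5.04 ± 0.10 in mutants and -5.25 ± 0.12 in controls (SD, n = 3 each), with every mutant array above every control array and a difference of 0.22 (SE 0.11; limma, adjusted p = 0.353). Gja10, next by p, was well above background on 1 mutant and 3 control arrays, at -5.76 ± 0.73 in mutants and -5.50 ± 0.26 in controls (SD, n = 3 each). Its groups overlapped, and the difference was -0.26 (SE 0.37; limma, adjusted p = 0.723). The 6 members that were not tested were Gja6, Gjb5, Gjb6, Gjd4, Gje1 and Panx3.

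Proteins that bind connexins, carry them to the membrane or sit beside them at cell junctions gave 1 call among 14 tested genes (4 at an unadjusted p under 0.05), with a median difference of 0.052. The called gene was Dbn1, which encodes drebrin, an actin-binding protein known to bind connexin 43. Mutant arrays A, B and C read -0.55, -0.24 and -0.69 for Dbn1, against -1.45, -1.25 and -1.30 on control arrays A, B and C. Every mutant array lay above every control array, and the difference was 0.84 (SE 0.15; limma, adjusted p = 0.0484). No gene of the 3 lists of related genes passed when any 1 of the 6 arrays was left out or when slide was a block, so the Dbn1 call depended on all arrays. Tjp3 and Cgn, which encode tight junction proteins and were picked after their values were seen, lay the other way, with differences of -0.57 and -0.38, groups that did not overlap and no call (limma, adjusted p = 0.0762 and 0.153).

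Other channels of large pore size and the P2X receptors that ATP opens gave 0 calls among 15 tested genes in limma (4 at an unadjusted p under 0.05), with a median difference of 0.047. Lrrc8b, a subunit of volume-regulated anion channels, was nearest the threshold, at -2.93 ± 0.13 in mutants and -3.68 ± 0.18 in controls (SD, n = 3 each; difference 0.75, limma, adjusted p = 0.0548). P2rx4, an ATP-gated cation channel, differed by 0.36 (limma, adjusted p = 0.152). The others of the 4 genes went the other way and were also not called. Lrrc8d differed by -0.31 and P2rx5 by -0.57 (limma, adjusted p = 0.189 and 0.232). P2rx5 was well above background on 1 mutant array and 3 control arrays.

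**Figure D5:**
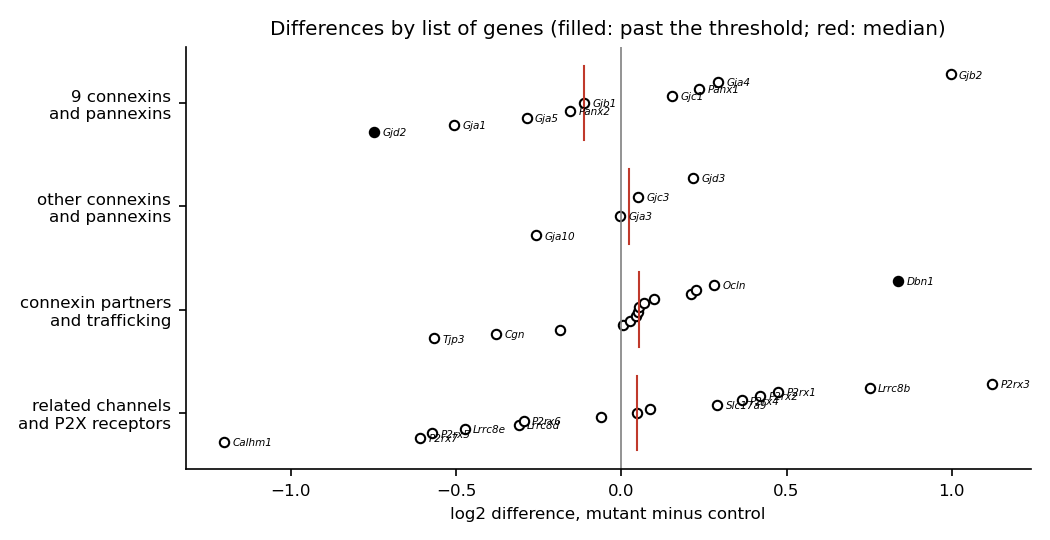
Mutant minus control log2 differences of the tested genes of 4 lists, from the 9 connexins and pannexins at the top to related channels at the bottom, with filled circles past the threshold and red lines at the medians. Gjd2 and Dbn1 are the 2 filled circles, and genes near 0 in the 2 longer lists are not named.

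The remaining marker lists were read for other cells that could carry connexins. Alpha cell genes had a median difference of 0.47 (0 of 6 called in limma, 2 at an unadjusted p under 0.05) and delta and PP cell genes 0.57 (0 of 4, 1 at an unadjusted p under 0.05). The glucagon gene Gcg had a scaled difference of 0.24 but an unscaled log2 difference of -0.021. Its scaled value thus mostly repeats the lower mean 75th percentile of mutant arrays, as for Ins1. The medians of both lists are scaled values and were not read as cell content. Duct genes had a median of -0.18 (0 of 8, 1 at an unadjusted p under 0.05) and Schwann cell genes 0.11 (0 of 6, 0 at an unadjusted p under 0.05). The duct differences ran from -1.10 for Krt19 to 3.12 for Cftr (limma, adjusted p = 0.291 and 0.0831). Cftr was the 1 duct gene under an unadjusted p of 0.05, opposite in sign to the median. It was well above background on 3 mutant and 2 control arrays. Leukocyte genes had a median of -0.29 (0 of 9, 2 at an unadjusted p under 0.05), and their summed signal was 21.3 to 27.3 in mutants and 32.7 to 36.3 in controls, in units of each array's 75th percentile. Itgam and Cd3e made up 79.5% to 88.4% of it, and without them the sums overlapped, at 4.09 to 4.80 in mutants and 3.78 to 6.80 in controls. The part of any of these cells in the connexin and pannexin values was not tested.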

How the data were processed

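Islet RNA of 3 mutant and 3 control samples was measured on single-colour arrays. Agilent Feature Extraction 10.7.3.1 made the deposited scanner files, per the submitters' processing notes. Their spot intensities were already background-corrected but not scaled across arrays, per the file headers. Flags in the deposited files (other values) mark saturated spots, outliers and signal well above background. A deposited table of linear intensities, equalized by a method not given in the sources used here, served as an alternative. Its columns had medians of 272.8, 274.5 and 274.55 in mutants A, B and C and 270.15, 266.95 and 268.3 in controls A, B and C, and each ranked spots as the median spot signal did (Spearman at least 0.999).

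Log2 processed intensities were averaged per probe, and the array's 75th percentile over non-control spots was subtracted. A probe was tested if all arrays of 1 group or of both had it well above background, and the brightest tested probe stood for a gene. Mutants were compared with controls by limma 3.58.1 in R 4.3.3 with version 1.17.8 of data.table, two-sided, with Benjamini-Hochberg adjustment over all genes and a threshold of 0.05. The procedure was tested on simulated data. Arrays have no depth, and their number limits the precision. Slide was read from the array identifiers.

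The members, the lists and the tests were chosen with earlier results of these data known. By rule, named genes were the members, Nkx6-1, the called genes of each list of related genes (otherwise the 2 with the smallest p), the 3 genes nearest to Gjd2 and the defining markers. Outside that rule, and with their values known, Tjp3, Cgn, Lrrc8d, P2rx5, Iapp, Cftr, Mcam, Itgam, Cd3e and the called beta cell markers were also named. So were the family members that were not tested. Probe coordinates are mm9, from the files, and promoters are from RefSeq on GRCm38.p6. Exons and UTRs were not analysed here. Some further genes of the connexin family are not reported here. Samples share the letters A to C across groups, and no label makes them pairs. For that reason the letters were not used as pairs. Deviations from the group means correlated at -0.23, -0.19 and -0.031 between arrays of the same letter. Each of these letter pairs lay on different slides, so the values cannot speak for or against pairs. Mutant and control arrays on the same slide correlated at 0.084 to 0.23, and all those on different slides correlated negatively. Deviations from a group mean cancel out within the group, so positive values for some pairs force negative ones for others. Alternatives were other background corrections, normalizations and filters, a block on slide or on letter, a variance trend with robust estimation, other probe rules, and each array left out. Those chosen after seeing the data were leaving out mutants A and B, using the acinar mean as a covariate and marker sums without their brightest genes.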

Additional observations from a re-analysis of the deposited data

How the results depend on the processing

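Of 22775 genes, 576 were called, and 1514 at an adjusted p under 0.1. The count was 0 with a replicate block on the sample letters, which are not shown to be pairs (limma, 3163 at an unadjusted p under 0.05), 144 with the acinar mean as a covariate, 4 without mutants A and B, and 13 to 418 with 1 array left out (13 without control B, 18 without mutant B, 21 without control C). The call of Gjd2, 1 of 9 members, was lost (0 called) with scaling to the median, no filter on dim probes, the replicate block (adjusted p = 0.195), the acinar covariate (0.0640) and without mutants A and B (0.127), and the count was 0 to 1 with 1 array left out. Its difference stayed between -0.83 and -0.69, also within slides. Of the 3 lists of related genes 1 gene was called. That count was 2 with normexp and quantile normalization, the deposited table, a filter on all 6 arrays or a variance trend, 3 at an adjusted p under 0.1, and 0 with scaling to the median, slide as a block, the replicate block, the acinar covariate, without mutants A and B, or without any 1 array (0 to 0). Signs turned for Gja5 with normexp (0.12), for Gjb1 without mutants A and B (0.40) and for Gjb2 with the acinar covariate (-0.18). With 1 array left out the differences ran from -0.69 to 0.059 for Gja5, -0.37 to 0.13 for Gjb1, -0.045 to 2.27 for Gjb2, -0.74 to -0.31 for Gja1, 0.19 to 0.36 for Gja4, 0.042 to 0.29 for Gjc1, 0.10 to 0.36 for Panx1 and -0.19 to -0.11 for Panx2. Panx2 was -0.072 with normexp, -0.075 from the deposited table and -0.28 as the mean of its probes. The cause was not tested. Low signal over background limits Gja5, Gja1, the dimmer Panx2 probe and Gjb2 on mutant A. The lone array of a group in a left-out setting is assumed to vary like the others.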
